A study of Homo sapiens with 19 samples.

Results

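The genes described here encode the proteins that choose between splice sites in human cells. They are the genes whose current RefSeq symbol starts with SRSF or HNRNP, together with TRA2A, TRA2B, RBFOX2, CELF1, CELF2, ESRP1, ESRP2, MBNL1, MBNL2, MBNL3, PTBP1, PTBP2 and PTBP3, with pseudogenes left out. They were chosen by name and not by their signals, although earlier results of these data were known. Of 54 such genes in RefSeq, 47 had a probe on the array, out of 20503 genes with a probe. The other 7 (HNRNPA1L3, HNRNPCL2, HNRNPCL3, HNRNPCL4, HNRNPD-DT, HNRNPK-AS1 and HNRNPUL2-BSCL2) were not analysed here. The 47 members fall into 14 SR-type genes (12 SRSF and 2 TRA2), 22 HNRNP genes and 11 regulators known for tissue-type splicing.

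Expressions were measured in KhES-3, a line of human embryonic stem cells (hESCs), during the induction of brown adipocytes (BAs). Every sample carried the same treatment, in which the cells were moved to low-attachment dishes in a serum-free medium with a cocktail of hematopoietic cytokines (IGF-II, BMP4, VEGFA, KITLG, FLT3LG and IL-6). RNA was taken once at each of 19 times and put on 1 array each, without replicates, so that the scatter of the arrays around a line in time stands in for the error. The samples come from 1 cell line, no sample from before the induction was analysed here, and the labels name a feeder layer of mouse fibroblasts for the hESC culture, whereas the study's methods name a feeder-free system.

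Removal of introns is carried out by the spliceosome, and the choice between alternative exons depends on RNA-binding proteins that act on the nascent transcript. SR proteins, which carry a domain rich in arginine and serine, mostly bind exonic enhancers and favor inclusion of an exon, whereas many hnRNP proteins bind silencers and favor skipping, and both families regulate their own amounts through exons that bring early stop codons into the transcript. RBFOX, CELF, ESRP, MBNL and PTBP proteins set the exon choices that distinguish tissues, with the ESRP proteins known for epithelial exons and MBNL proteins for the switch away from the exon choices of pluripotent cells.

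Each member is represented by its brightest probe, which exceeded the background clearly on every array for 45 members (on 17 of 19 arrays for MBNL2 and on 16 for MBNL3). Signals are processed intensities brought to a common 75th percentile of 871. Of 3 slides, the first held the arrays of 3, 4, 6, 8, 10 and 12 h. The second held those of 14, 16, 20, 24, 28, 32, 36 and 42 h. The last, scanned on a later day, held those of 48, 54, 60, 66 and 72 h. Each slide thus covers its own span of time, and no span is shared between slides. Before scaling, the 75th percentile lay between 654.7 and 1003, with the 2 lowest values at 66 and 72 h, and 49.6 to 64.7% of the probes were well above background. The label of stem cells was checked against markers, and 6 of 6 measured genes of pluripotent cells (POU5F1, NANOG, SOX2, LIN28A, DPPA4 and DNMT3B) were detected on all 19 arrays. POU5F1, LIN28A and DNMT3B fell, to 80.1%, 81.7% and 55.7% of their early signals. These calls depended on the scaling, of which others are described below. Under the array median 4 of the 6 fell and under the spike-in RNA 3 did, and 0 rose. Under normexp with quantile normalization 2 fell and 2 rose. The summed signal of the 6 genes was 629903 to 634674 at 3, 4 and 6 h and 468526 to 494700 at 60, 66 and 72 h, and that of 5 epithelial markers was 138654 to 145846 early and 136875 to 163667 late. The part of these markers in the results that follow was not tested. In such bulk samples, fewer cells of a type and less RNA per cell cannot be told apart.

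Most of the splicing regulators fell over the 72 h of induction, and none was called as rising by its brightest probe. By limma's slope on hours, with Benjamini-Hochberg adjustment over 32113 probes, 36 of 47 members fell (76.6%), against 29.8% of the 16694 genes tested. None rose, against 24.6% of all genes, and none rose at an unadjusted p under 0.05 or by Spearman's correlation. The members that fell were 17 of 22 HNRNP genes, 11 of 14 SR-type genes and 8 of 11 tissue-type regulators. The late change of a gene is its average log2 signal over 60, 66 and 72 h less the average over 3, 4 and 6 h, 2 windows that are not sets of replicates. Its median was -0.60 over the members (65.8% of the early signal) and -0.05 over all genes. All 47 members changed by less than 0 on this scale, from -1.56 for HNRNPDL to -0.06 for HNRNPCL1. The slope was negative for 46 of them, against 50.75% of all genes. The early window lies on the first slide and the late one on the last, so slide and time cannot be told apart in this change. The same holds for every late signal given as a percent of the early one.

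**Figure D1:**
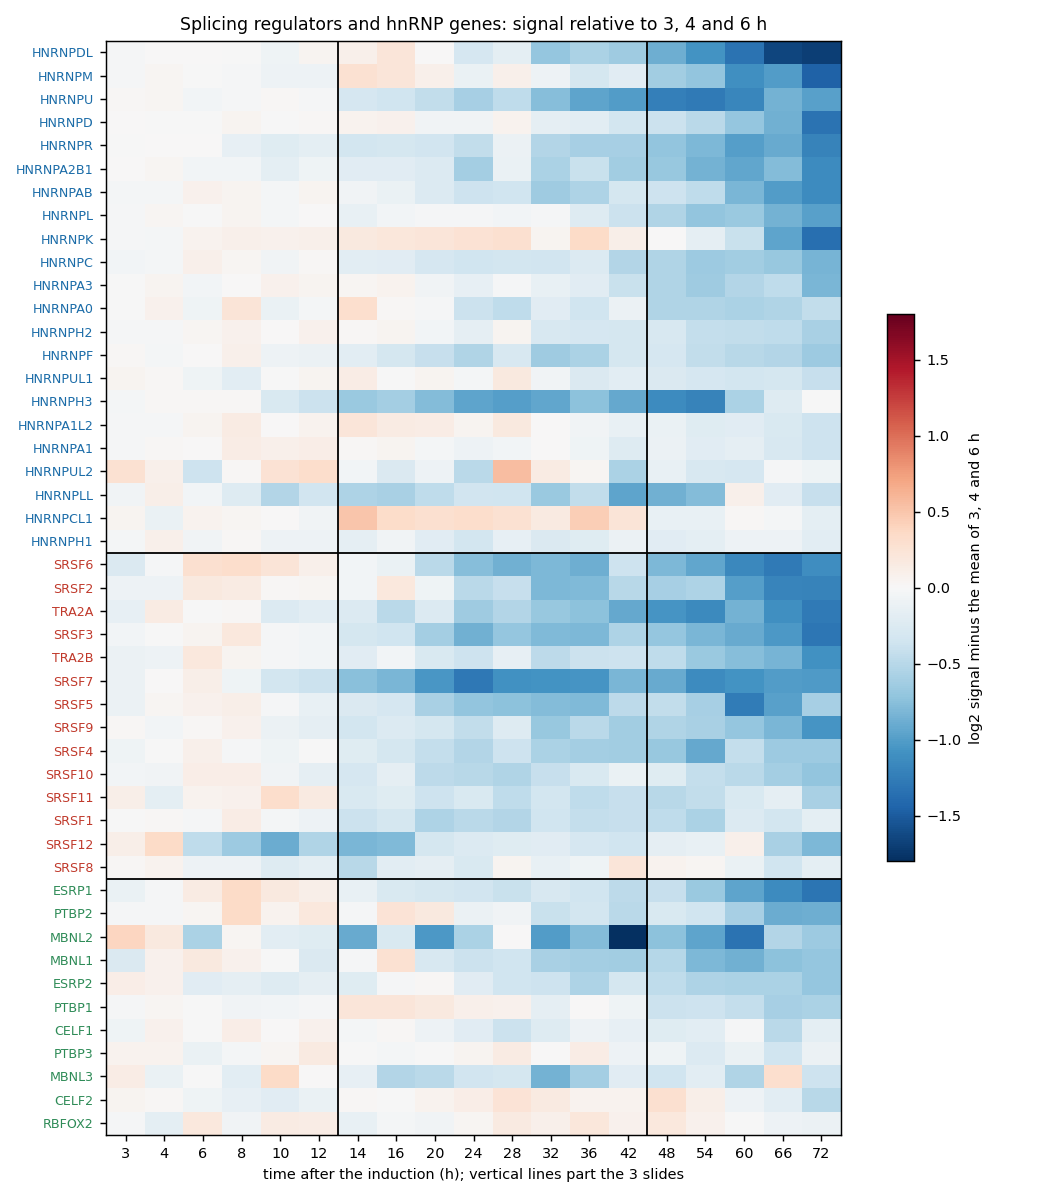
Heat map of the 47 members (rows, by family and slope) at the 19 time points (columns, hours after the induction). Colors give the log2 signal minus the gene's own mean at 3, 4 and 6 h, and vertical lines part the 3 slides. Blue deepens to the right in most rows, and 26 members had their lowest signal at 72 h. The share of all genes lowest at 72 h was not counted.

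The members' median changed little up to 12 h and then went down. Relative to each member's own mean at 3, 4 and 6 h, the median over the members was 0.04 on the log2 scale at 8 h. It reached -0.34 by 24 h, then -0.37 by 42 h and -0.55 by 54 h, and ended at -0.69, while the median of all genes stayed between -0.09 and 0.01. The highest signal of 41 members lay at 16 h or earlier, and the lowest of 34 members lay at 60, 66 or 72 h. How many of all genes were highest or lowest at these times was not counted. These counts thus do not set the members apart. Between the 6 arrays from 3 to 12 h and the 8 arrays from 14 to 42 h, 38 of 47 members went down, with a median step of -0.28. The next step, to 48 and 54 h, was -0.23 (39 members down), and the last, to 60, 66 and 72 h, was -0.13 (34 members down). Over all genes, 49.1 to 55.2% went down in these steps. The first slide ends at 12 h and the second at 42 h. The steps into 14 to 42 h and into 48 and 54 h thus fall between slides, where slide and time cannot be told apart. The last step lies within the last slide. SR-type genes came down sooner than HNRNP genes, with medians of -0.49 and -0.31 at 24 h and of -0.91 and -0.73 at 72 h. The difference between the families was not tested.

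Because the slides follow time, a further fit held the slide as a block. In it 18 members fell, all of them among the 36, against 5.97% of all genes, and none rose. These were HNRNPDL, HNRNPM, HNRNPD, HNRNPR, HNRNPA2B1, HNRNPAB, HNRNPL, HNRNPH2, HNRNPA1L2, SRSF2, TRA2A, SRSF3, TRA2B, SRSF9, PTBP2, MBNL1, ESRP2 and PTBP1. Within the first slide 26 of 47 slopes were negative (51.3% over all genes), within the second 41 (50.1%) and within the third 35 (51.9%). The members' median slope was -0.0023 per hour within the first slide, -0.0105 within the second and -0.0102 within the third. The members' decline was thus seen within the later slides, while the first showed little of it.

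The size of the change depended on the scaling. Scaled to the median of each array, 42 members fell (44.5% of all genes) and the median change was -0.97, and scaled to spike-in RNA (foreign transcripts put into each sample in known amounts), 43 fell (44.5% of all genes) and the median change was -1.25. No member rose under either. These scalings moved the median of all genes to -0.42 and -0.70, and the share of rising among all called genes from 45.2% to 19.3% and 7.44%. These scalings add 1 constant per array, so that the members' median lies 0.55 below that of all genes under each of them by construction. On the log2 scale the spike-in level lay 4.737 and 4.752 above the 75th percentile at 66 and 72 h. It lay 4.017 above at 60 h, and 3.755 to 3.999 above at 3, 4 and 6 h. The shift under the spike-in scaling was thus uneven over the late arrays. Normexp background correction with quantile normalization, which can move genes against each other, gave a median change of -0.43 for the members and -0.04 for all genes, and 35 members fell (26.4% of all genes) and none rose, with slopes of 0.000802 for CELF1 and 0.000515 for PTBP3 that were not called. Brightness also went with the calls. Among the 4174 genes of the highest mean signal 51.2% fell, and of the 31 members there 28 fell (90.3%). Among the other 12520 genes 22.7% fell, as did 8 of 16 members. The part of brightness in the members' decline was not tested.

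**Figure D2:**
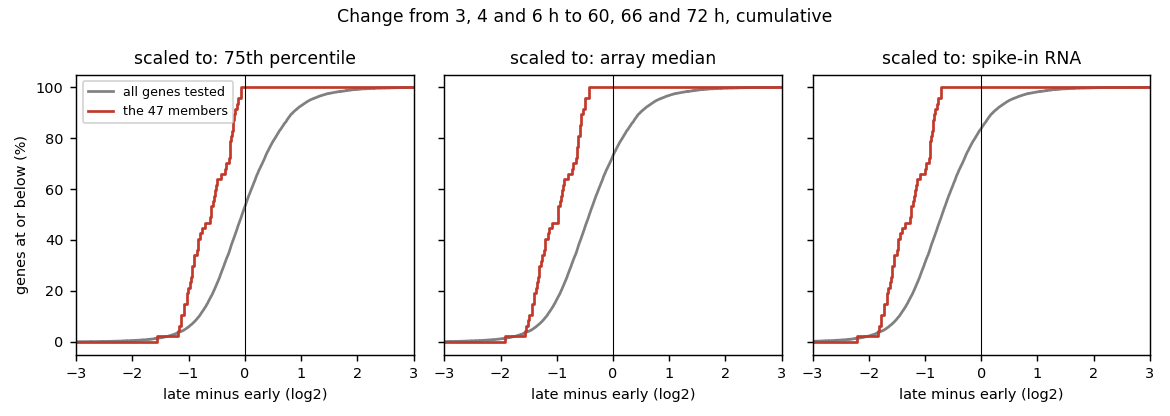
Cumulative percent of genes (vertical axis) at or below a given late minus early change (horizontal axis, log2, mean of 60, 66 and 72 h minus mean of 3, 4 and 6 h) under the 3 scalings. Apart from its lowest few percent, the curve of the 47 members lies to the left of that of all 16694 genes in each panel, with medians of -0.60 and -0.05 for the scaling to the 75th percentile.

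The promoters of 4 members are shown because these genes carry the patterns described next: HNRNPDL and SRSF6 fell fastest in their families, and HNRNPK and HNRNPH3 left a straight course most clearly. Each is the RefSeq window from 250 bases before to 50 bases after a start in GRCh38.p14, read 5′ to 3′ on the gene's strand. For SRSF6, HNRNPK and HNRNPH3 this is the outer start of the gene. For HNRNPDL it lies inside the gene (82422564 to 82430462), so that most of its window does too. HNRNPDL is at chr4:82430176-82430475 (minus strand), SRSF6 at chr20:43457646-43457945 (plus strand), HNRNPK at chr9:83980566-83980865 (minus strand) and HNRNPH3 at chr10:68331443-68331742 (plus strand). Capitals mark matches, on either strand, to any of 7 motifs: CCGGAA (the ETS core), GCGCATGCG (NRF1), AAGATGGCG (YY1), GGGCGG (the SP1 GC box), CCAAT (the CCAAT box), CACGTG (the E-box) and TATAAA (the TATA box).
HNRNPDL: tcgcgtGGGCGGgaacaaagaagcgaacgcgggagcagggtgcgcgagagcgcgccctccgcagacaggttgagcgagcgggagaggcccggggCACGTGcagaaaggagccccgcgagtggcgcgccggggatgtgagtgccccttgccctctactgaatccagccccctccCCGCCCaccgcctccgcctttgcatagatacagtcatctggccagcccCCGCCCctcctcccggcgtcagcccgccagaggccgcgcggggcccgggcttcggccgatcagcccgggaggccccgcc
SRSF6: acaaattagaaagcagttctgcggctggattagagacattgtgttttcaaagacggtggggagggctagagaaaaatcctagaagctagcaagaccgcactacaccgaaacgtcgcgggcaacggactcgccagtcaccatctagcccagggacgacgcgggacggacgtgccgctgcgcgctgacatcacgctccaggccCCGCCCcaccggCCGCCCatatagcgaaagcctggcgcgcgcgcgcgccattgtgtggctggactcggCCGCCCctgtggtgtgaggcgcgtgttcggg
HNRNPK: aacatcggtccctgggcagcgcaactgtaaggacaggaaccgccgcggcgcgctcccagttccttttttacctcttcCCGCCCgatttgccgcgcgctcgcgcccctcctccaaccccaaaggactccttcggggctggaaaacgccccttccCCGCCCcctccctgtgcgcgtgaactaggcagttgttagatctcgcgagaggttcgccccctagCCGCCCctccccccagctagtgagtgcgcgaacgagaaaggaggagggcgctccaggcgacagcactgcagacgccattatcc
HNRNPH3: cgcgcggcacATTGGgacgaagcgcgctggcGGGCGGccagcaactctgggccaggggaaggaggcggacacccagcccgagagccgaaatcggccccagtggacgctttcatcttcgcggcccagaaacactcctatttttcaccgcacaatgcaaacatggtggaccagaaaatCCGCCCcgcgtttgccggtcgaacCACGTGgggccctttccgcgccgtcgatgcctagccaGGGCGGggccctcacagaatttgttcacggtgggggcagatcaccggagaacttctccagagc

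All 4 windows hold the GC box, and those of HNRNPDL and HNRNPH3, one of which fell while the other returned, also hold the E-box. RefSeq windows were matched for 41 members, and the GC box was in 28 of them (68.3%), against 65.5% of the promoters of 12874 genes tested and 44.6% of all 27305 promoters. It was in 23 of the 31 members that fell (74.2%) and in 5 of the 10 that were not called. The E-box was in 7 of 41 (HNRNPA3, HNRNPD, HNRNPDL, HNRNPH2, HNRNPM, HNRNPUL1 and HNRNPH3), against 9.59% of the genes tested and 7.44% of all promoters. The CCAAT box was in 17 (36.0% of the genes tested, 35.7% of all), the ETS core in 9 (26.4%, 17.6%), the TATA box in 5 (7.18%, 12.0%), the NRF1 motif in 1 (3.34%, 2.10%) and the YY1 motif in 0 (3.29%, 1.85%). Such matches describe the letters of these windows and are not binding sites. The windows of HNRNPF, MBNL1, PTBP2, PTBP3 and SRSF11 also surround a start inside the bounds of the gene in RefSeq.

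Among the SR-type genes, SRSF6, SRSF2, TRA2A, SRSF3, TRA2B, SRSF7, SRSF5, SRSF9, SRSF4, SRSF10 and SRSF11 fell, and SRSF1, SRSF12 and SRSF8 were not called. SRSF6, an SR protein of the splicing enhancers, had the steepest slope. From 3 to 72 h its signals were 19158, 22500, 27964, 28656, 26953, 24495, 22245, 21204, 16377, 13447, 12622, 13147, 12409, 17789, 13086, 12039, 10301, 9532 and 10568. The signal thus rose to 8 h, fell to 24 h and ended at its lowest values. Its slope was -0.0206 ± 0.0028 (SE) per hour (adjusted p = 6.35e-06, limma), and the late signal was 44.2% of the early one. The slide block left a slope of -0.0150 that was not called (adjusted p = 0.208), and within the first slide it was positive (0.0365), against -0.0192 and -0.0159 within the others.

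SRSF2 and SRSF3, 2 small SR proteins that also act in the export of mRNA or in transcription, followed. SRSF2 had its highest signal (48751) at 16 h, a median of 32016 and its lowest (18422) at 72 h, and SRSF3 went from a highest signal of 69093 at 8 h, over a median of 39819, to 24588 at 72 h. Their slopes were -0.0189 ± 0.0021 and -0.0173 ± 0.0022 (SE) per hour (adjusted p = 6.86e-07 and 2.77e-06, limma), and both were still called with the slide as a block (adjusted p = 0.00814 and 0.0430). TRA2A and TRA2B, the human relatives of the fly factor that directs splicing in sex determination, fell to 47.5% and 53.6% of their early signals, and both also passed with the block (adjusted p = 0.0264 and 0.0390).

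SRSF7, which promotes export of mRNA as well as splicing, made its change early. It was 37340 at 6 h, 26583 at 12 h and 14219 at 24 h, its lowest signal, and then stayed between 15888 and 19605 to 72 h. The step between the first 6 and the next 8 arrays was -0.86, the deepest of the members, and the next 2 steps were -0.02 each. That step falls between 2 slides, but the slope within the first slide was already -0.0418 per hour. SRSF1, the founding member of the family, had a slope of -0.0047 ± 0.0022 (SE) that missed the threshold (adjusted p = 0.0725), and the slopes of SRSF8 and SRSF12 were 2.04e-04 and -2.56e-06. The only probe of SRSF1 had a median signal of 525.5. SRSF1 did fall under the array median, the spike-in scaling and normexp with quantile normalization (adjusted p = 0.00888, 0.00109 and 0.023, limma).

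A pair of SRSF6 probes went in opposite directions. The probe above is assigned to NM_006275, the coding transcript, and the other to NR_034009, which RefSeq lists as a noncoding transcript of the same gene. The signals of the noncoding probe were 132.5, 127.5, 151.8, 163.9, 191.3, 161.7, 122.9, 296.2, 119.3, 144.1, 136.6, 182.6, 189.1, 202.7, 227.8, 243.2, 329.7, 550.2 and 460.7. It was well above background on all 19 arrays, and apart from a single high array at 16 h its signals stayed under 200 to 36 h and then climbed to their highest value at 66 h. Its slope was 0.0232 ± 0.0039 (SE) per hour (adjusted p = 7.16e-05, limma), and its late signal was 319% of the early one. It also rose under the array median, the spike-in scaling and normexp with quantile normalization (slopes 0.0179, 0.0147 and 0.0155), and the slope was positive within each slide (0.0509, 0.0101 and 0.0535), but it was not called with the slide as a block (0.0266, adjusted p = 0.124). Relative to 3 h, the coding probe over the noncoding probe rose to 1.27 at 6 h and was 0.65 by 24 h, 0.34 by 54 h and 0.16 by 72 h, which shows unequal change and not the amount of either transcript.

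Among the HNRNP genes, 17 fell: HNRNPDL, HNRNPM, HNRNPU, HNRNPD, HNRNPR, HNRNPA2B1, HNRNPAB, HNRNPL, HNRNPK, HNRNPC, HNRNPA3, HNRNPA0, HNRNPH2, HNRNPF, HNRNPUL1, HNRNPA1L2 and HNRNPA1. HNRNPDL, a relative of HNRNPD that binds AU-rich RNA, had the steepest slope of all 47. Its signals from 3 to 72 h were 10846, 11000, 11038, 10932, 10428, 11376, 11701, 12702, 11050, 8904, 9745, 6757, 7397, 7033, 5941, 5197, 4381, 3473 and 3394. They held between 10428 and 12702 to 20 h and then declined. The slope was -0.0265 ± 0.0019 (SE) per hour (adjusted p = 4.85e-09, limma), the late signal was 34.0% of the early one, and the slide block left the slope at -0.0321 (adjusted p = 7.39e-04).

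HNRNPD (AUF1), known for its part in the decay of AU-rich mRNAs, is the neighbor of HNRNPDL. RefSeq places it at 82352498 to 82373991 on chromosome 4 of GRCh38.p14, 48572 bases from HNRNPDL (82422564 to 82430462). Its signals were 82169, 81085, 81484, 84535, 81532, 83122, 85464, 85864, 77952, 77794, 85257, 72769, 71211, 65028, 62223, 58492, 50546, 44607 and 32358. They stayed level to 28 h and bent downward, ending at 39.4% of the 3 h signal. The slope was -0.0157 ± 0.0018 (SE) per hour (adjusted p = 1.12e-06), with a curved course (adjusted p = 1.13e-04, limma's F test of the quadratic and cubic terms), and both held with the slide as a block (adjusted p = 0.00859 and 0.00480).

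HNRNPM fell from signals of 18433 to 23588 up to 20 h to 7128 at 72 h, with a slope of -0.0194 ± 0.0024 (SE) per hour and a call that held with the block (adjusted p = 0.00240). HNRNPU, a nuclear matrix protein that also binds chromatin, declined to 8744 at 54 h, its lowest signal, and was 11701 at 66 h. HNRNPR, HNRNPA2B1 and HNRNPAB ended at 48.9%, 51.9% and 50.6% of their early signals. HNRNPA1, the best known silencer-binding hnRNP, changed less, to 82.8%, although its slope of -0.0055 ± 0.0011 (SE) was called (adjusted p = 2.47e-04, limma). HNRNPA1L2 and HNRNPCL1 are near-identical copies of HNRNPA1 and HNRNPC, and whether their probes bind only their own transcripts was not tested.

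HNRNPK and HNRNPH3 had the smallest adjusted p for a curved course. A curved course was called for 20 of the 47 members (42.6%), against 50.8% of all genes, so that the count of curved courses did not set the members apart. HNRNPK, which binds stretches of C in RNA and DNA, had signals of 23394, 23224, 24724, 25391, 25021, 25308, 26850, 27321, 27578, 28368, 28989, 24546, 30228, 25466, 23778, 21348, 17946, 12328 and 9281. It lay between 23224 and 30228 up to 48 h and then dropped to 39.7% of its 3 h signal by 72 h (adjusted p = 2.73e-07 for the curve, 7.0e-05 with the slide as a block). The straight slope of -0.0135 was called (adjusted p = 0.00180), but was lost under the slide block (adjusted p = 0.113) and without the arrays at 66 and 72 h (-0.0038, adjusted p = 0.193). Its other probe, assigned to NM_031262, fell more evenly to 63.5% of its early signal, with no curve called.

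HNRNPH3, a relative of the G-run binding proteins HNRNPH1 and HNRNPF, went down and came back. Its signals were 7097, 7418, 7390, 7404, 6021, 5568, 4608, 4767, 4230, 3790, 3668, 3806, 4390, 3867, 3334, 3181, 4919, 6198 and 7271. They fell to 44.8% of the 3 h signal at 54 h and stood at 102% of it at 72 h, or 229% of the 54 h signal. The curve was called without and with the slide as a block (adjusted p = 7.85e-06 and 3.40e-04), and the second probe of the gene also had a curved course. The straight slope was not called (-0.0061 ± 0.0042 SE, adjusted p = 0.233), while that up to 54 h was (-0.0237, adjusted p = 3.16e-05) and leaving out the array at 72 h alone was enough for a call (-0.0113, adjusted p = 0.0295). In all, 13 members stood above their 54 h signal at 72 h and 34 below it. The share of all genes on either side was not counted, so these numbers do not set the members apart. They also compare 2 single arrays, of which the later had 53.8% of its probes well above background and the earlier 64.7%. With the slide as a block a curve was called for 8 members (HNRNPU, HNRNPD, HNRNPK, HNRNPH3, SRSF12, ESRP1, CELF2 and RBFOX2), against 22.7% of all genes.

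**Figure D3:**
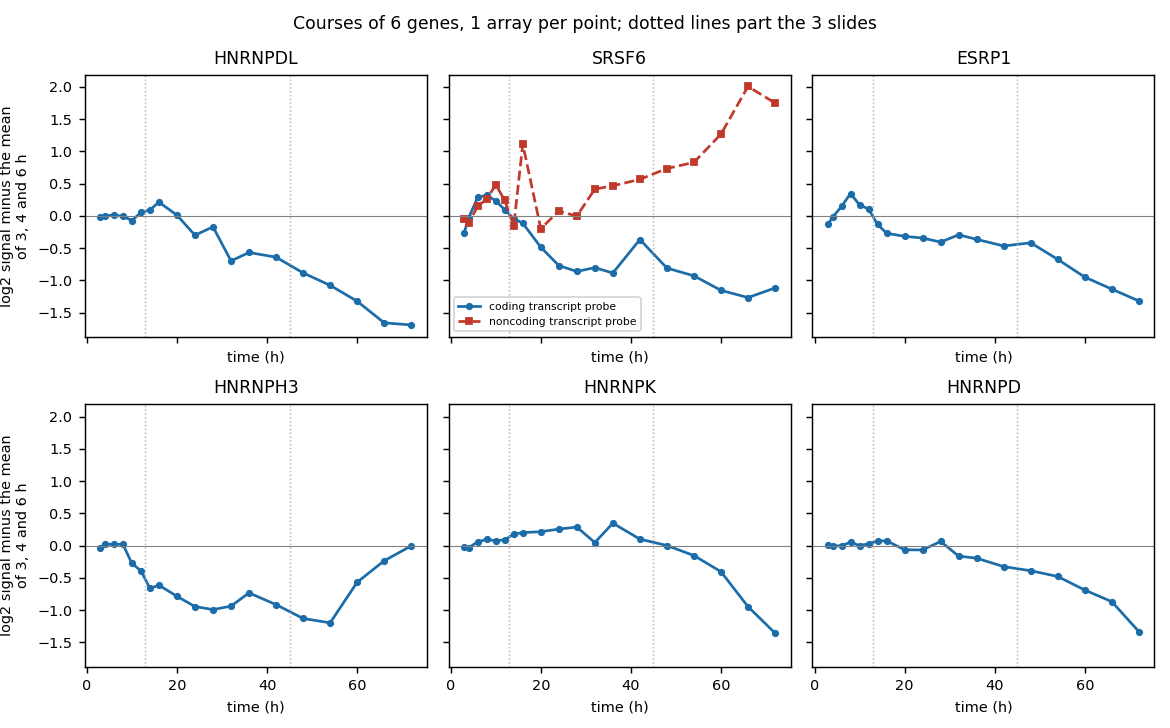
Courses of HNRNPDL, SRSF6, ESRP1, HNRNPH3, HNRNPK and HNRNPD, as the log2 signal minus the mean of 3, 4 and 6 h (vertical axis) against hours after the induction (horizontal axis), with 1 array per point and dotted lines between the slides. The coding and noncoding probes of SRSF6 move apart, HNRNPH3 returns to its early level after 54 h, and HNRNPK holds its level to 48 h before it drops.

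The remaining HNRNP genes were not called. HNRNPH1 was the steadiest, with signals between 21401 and 28736 and a slope of -0.0018 ± 0.0013 (SE) per hour (adjusted p = 0.235, limma). HNRNPLL, a regulator of exon choice in lymphocytes, also had a curved course, with its lowest signal (1305) at 42 h and a step of 0.65 into the last 3 arrays, but its second probe had no curve called. HNRNPUL2 and HNRNPCL1 had slopes of -0.0039 and -0.0027. Scaled to the spike-in RNA, all 22 HNRNP genes fell, and scaled to the array median 20 did.

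Among the 11 tissue-type regulators, ESRP1, PTBP2, MBNL2, MBNL1, ESRP2, PTBP1, CELF1 and PTBP3 fell, and MBNL3, CELF2 and RBFOX2 were not called. ESRP1, the main epithelial splicing regulator, had the steepest slope. Its signals from 3 to 72 h were 2710, 2908, 3273, 3757, 3324, 3181, 2696, 2451, 2372, 2329, 2230, 2412, 2296, 2138, 2213, 1851, 1530, 1345 and 1184. They rose to 8 h, came down to a plateau between 16 and 48 h and declined again on each of the last 4 arrays. The slope was -0.0184 ± 0.0019 (SE) per hour (adjusted p = 1.97e-07, limma), the late signal was 45.5% of the early one, and with the slide as a block the adjusted p was 0.0664. ESRP2 had a highest signal of 5868 at 3 h, a median of 4614 and a lowest of 3354 at 72 h, with a slope of -0.0096 ± 0.0014 (SE) that was still called with the block (adjusted p = 0.0414).

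The epithelial markers moved both ways. CLDN6 was at 63.6% of its early signal and fell (adjusted p = 8.50e-07, limma), and KRT18 rose to 126% by a narrow margin. CDH1, EPCAM and KRT8 were at 116%, 92.5% and 125% and were not called. Under normexp with quantile normalization KRT18, CDH1 and KRT8 rose, and under the array median and the spike-in scaling none of these 5 genes did. Of the mesenchymal markers TWIST1 rose to 189% (not under the array median or the spike-in scaling), CDH2 fell to 67.1%, and VIM was at 99.2%.

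PTBP1, which silences exons of the neuronal program, had signals between 1344 (66 h) and 2368 (14 h) with a median of 1995, and PTBP2, its neuronal relative, between 2351 (66 h) and 5545 (8 h) with a median of 4182. Their slopes were -0.0094 ± 0.0017 and -0.0146 ± 0.0018 (SE) per hour (adjusted p = 1.10e-04 and 2.25e-06, limma), and both passed with the block (adjusted p = 0.0143 and 0.00814). PTBP3 lay between 5191 (66 h) and 7469 (12 h), with a slope of -0.0037 ± 0.0014 (adjusted p = 0.0286). This slope was 5.17e-05 with the slide as a block and was not called without the array at 54 h (adjusted p = 0.0599) or at 66 h (adjusted p = 0.120). A second PTBP3 probe, assigned to NM_001244897, rose (0.0048 ± 0.0017 SE per hour, adjusted p = 0.0192), but its slope was -4.34e-04 under the array median and -0.0036 under the spike-in scaling.

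MBNL1 had signals between 437.5 (60 h) and 962.7 (16 h) with a median of 619.4, and its slope of -0.0138 ± 0.0020 (SE) per hour was called without and with the block (adjusted p = 1.52e-05 and 0.0410, limma). MBNL2 was dim, between 19.35 (42 h) and 109.6 (3 h), with the largest scatter of the members around its line (SD 0.51), and its slope of -0.0143 ± 0.0051 (adjusted p = 0.0251) was lost when the array at 3, 4 or 60 h was left out (adjusted p = 0.0596, 0.0518 and 0.0570). MBNL3 was also dim, between 45.3 (32 h) and 104.5 (10 h), and had a slope of -0.0033 ± 0.0032. CELF1 lay between 12484 (66 h) and 19055 (8 h), with a slope of -0.0044 ± 0.0015 (adjusted p = 0.0193) that was lost without the array at 66 h (adjusted p = 0.0840).

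The straight slopes of CELF2 and RBFOX2 were not called. CELF2 was highest at 48 h (4316) and lowest at 72 h (2486), with a median of 3586 and a slope of -0.0016 ± 0.0020 (SE) per hour (adjusted p = 0.532, limma). Up to 54 h alone its slope was positive and called (0.0056, adjusted p = 0.0251), and its curved course was called without and with the slide block (adjusted p = 4.28e-04 and 0.00409). RBFOX2, which directs exons of muscle, brain and mesenchymal cells, lay between 954.3 (4 h) and 1248 (36 h) with a median of 1101, and its slope was -2.43e-05 ± 0.0015 (adjusted p = 0.991). The late signal of RBFOX2 was 95.6% of the early one, and that of its second probe, which was not called, was 119%.

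**Figure D4:**
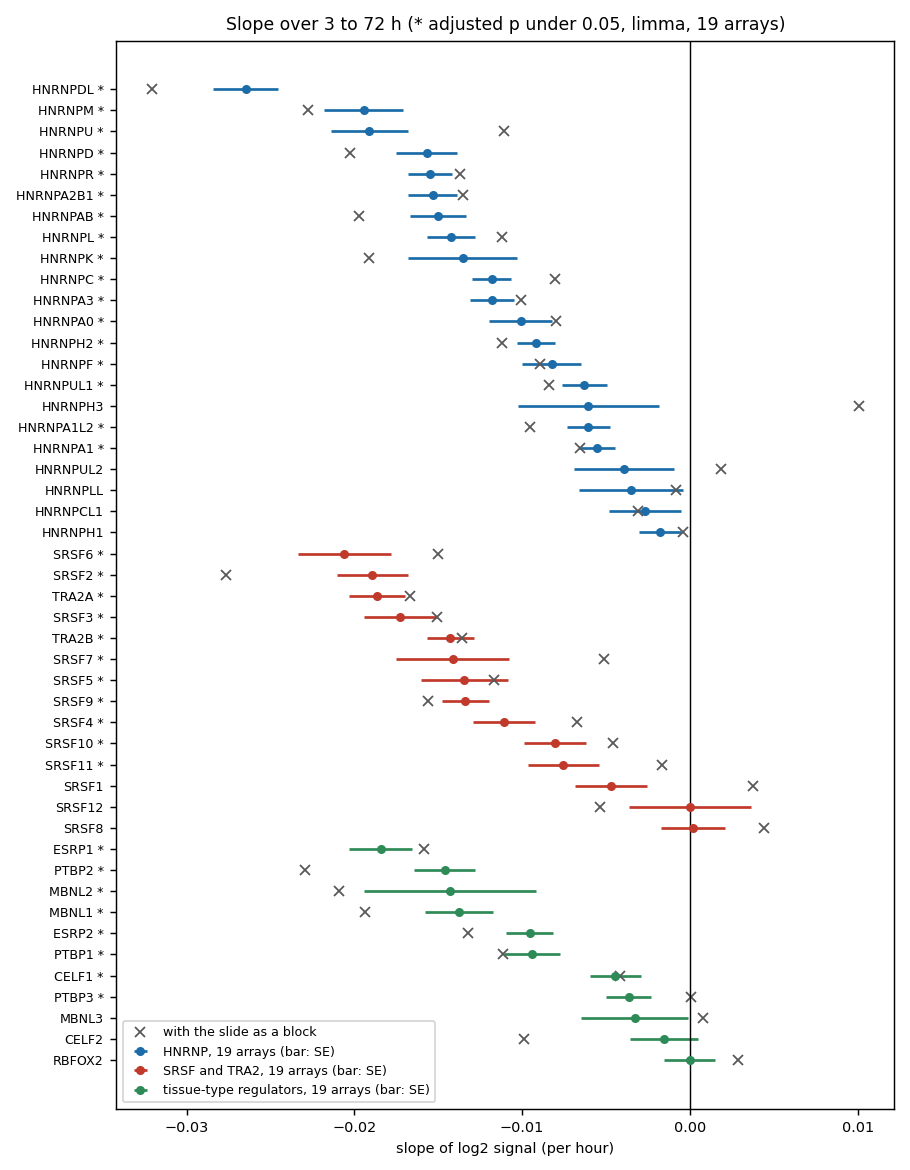
Slope of the log2 signal per hour (horizontal axis) for each of the 47 members (vertical axis, by family). Points with bars are the fit over 19 arrays with its SE, crosses the fit with the slide as a block, and asterisks mark an adjusted p under 0.05 in the first fit. All points but SRSF8 lie below 0, and 6 crosses of genes not called, HNRNPH3 among them, and that of PTBP3 lie above it.

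For 23 members more than 1 probe could be tested. In 13 of them every probe fell, in 4 no probe was called, and in 4 (CELF1, HNRNPA1, HNRNPA3 and SRSF11) some probes fell and the others were not called. SRSF6 and PTBP3 had probes called in opposite directions. HNRNPC, which binds runs of U and keeps cryptic exons out of mRNA, had the next largest spread after SRSF6: its 3 probes are all assigned to NM_031314, of which 2 fell to 61.2% and 61.7% of their early signals and the last to 22.1%. The slope of that probe was -0.0351 ± 0.0027 (SE) per hour (adjusted p = 7.21e-09, limma), steeper than that of any brightest probe, and it was also called with the slide as a block (adjusted p = 0.00195). Of the 6 probes of HNRNPA3, 4 fell and 2 were not called, with changes from -0.73 to 0.27. The places of the probes within the transcripts were not used here.

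Most genes of the splicing machinery itself fell too. The core spliceosome list holds 33 genes (proteins of the small nuclear ribonucleoproteins and the factors that recognize the branch point). Of these, 25 fell (75.8%) and 0 rose, against 29.8% and 24.6% of all genes, at a median change of -0.58. With the slide as a block 13 fell, against 5.97% of all genes. Among the genes of the highest mean signal 51.2% fell, and the part of brightness in these falls was not tested. Under normexp with quantile normalization 19 fell, against 26.4% of all genes, and 2 rose. The steepest were U2AF2, which binds the polypyrimidine tract (-0.0196 ± 0.0022 SE per hour), and SF3A1, a part of the U2 particle (-0.0196 ± 0.0013), at 48.4% and 46.5% of their early signals. With the slide as a block SF3A1 was still called (adjusted p = 0.00157) and U2AF2 was not (adjusted p = 0.170). PRPF8 and SNRNP200, the large proteins of the U5 particle, were at 97.6% and 101.1% and were not called, and they are the 2 that rose under normexp with quantile normalization.

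The kinases that phosphorylate SR proteins moved both ways. Of 8 such genes 2 rose, 1 fell and 5 were not called, with a median change of 0.30. Over all genes 24.6% rose and 29.8% fell. SRPK1, which drives SR proteins into the nucleus, fell to 67.0% of its early signal (adjusted p = 4.84e-06, limma), also with the slide as a block (adjusted p = 0.0194). CLK3 and SRPK3 rose to 272% and 136% (adjusted p = 0.0344 and 0.00763), but neither rose with the block or under the array median or the spike-in scaling, and CLK3 alone of them rose under normexp with quantile normalization. Of 36 other splicing regulators 15 fell (41.7%) and 9 rose, against 29.8% and 24.6% of all genes. With the slide as a block 3 fell, against 5.97% of all genes, and 2 rose. EWSR1 and CELF3 had the steepest falls (-0.0203 ± 0.0022 and -0.0201 ± 0.0027 SE per hour), and KHDRBS2, a relative of SAM68, and CELF6 the steepest rises (0.0399 ± 0.0037 and 0.0236 ± 0.0048). With the slide as a block EWSR1, KHDRBS2 and CELF6 were still called and CELF3 was not (adjusted p = 0.0644). KHDRBS2 also rose under each of the other 3 scalings, and CELF6 did so except under the spike-in scaling. Scaled to the array median 18 of these 36 fell and 5 rose, and scaled to the spike-in RNA 22 fell and 1 rose. Over all genes 44.5% fell under each of these scalings. Under normexp with quantile normalization 12 fell, against 26.4% of all genes, and 7 rose.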

How the data were processed

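Total RNA of 19 samples of KhES-3 cells was labeled with Cy3 and hybridized to one-colour Agilent 8 × 60 K v2 arrays by the authors. The authors deposited the output of Agilent Feature Extraction (version 10.10.1.1 per the labels), in which each spot has a processed intensity, background-subtracted and not scaled between arrays, raw median intensities and flags of 0 or 1. A deposited table holds the same intensity times 1 factor per array. Columns of no sample numbered 0.

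Of 61657 spots that are not controls, 0.632% of those over all arrays were flagged as outliers and left out, and none was saturated. Replicate spots were averaged per probe, and each array was scaled to its 75th percentile on the log2 scale. Through RefSeq accessions (GRCh38.p14), 28174 of 50683 probes were named as 20503 genes, each represented by the probe of the highest mean log2 signal. Slopes on hours and the quadratic and cubic terms of a polynomial were tested with limma 3.58.1 in R 4.3.3 (Benjamini-Hochberg adjustment) over 32113 probes, those called well above background by the scanner software on 5 arrays or more. A call is an adjusted p under 0.05. The fits were tested on simulated data with independent noise and no slide effect. Of 100 straight changes of 1 log2 over 69 h, 77 were called, and of 100 curved ones 93. The simulation does not bear on effects of the slides. Tables were made with Python 3.11.15 and pandas 2.3.3.

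The members and the gene lists were chosen with earlier results of these data known. Named with every signal are the called member of the steepest slope in each family, the 3 members with the smallest adjusted p for a curve and members with opposite probes, and from other lists the 2 called genes of the steepest slope in each direction. SRSF2, SRSF3, SRSF7, HNRNPM, HNRNPU, HNRNPLL, HNRNPC and the core genes PRPF8 and SNRNP200 were picked out after their values were seen. Marker lists were fixed for pluripotent, epithelial, mesenchymal, neural, mesoderm, endoderm, fibroblast, and blood and endothelial cells. The alternatives were 3 other scalings (array median, spike-in RNA, and normexp with an offset of 50 and quantile normalization), the deposited table, other filters, log2 hours, the slide as a block, 3 to 54 h, the mean of a gene's probes, Spearman's correlation and each array left out. Leaving out 66 and 72 h together was added after the data were seen. The number of arrays limits the precision, and p-values measure only the scatter of single arrays around a line in time.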

Additional observations from a re-analysis of the deposited data

How the results depend on the processing

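No paired analysis was possible because the arrays carry no shared replicate numbers. The count of falling members stayed between 33 and 43 under the alternatives other than the block, and between 34 and 38 with 1 array left out; no member rose in the latter. With the slide as a block 18 members fell and 8 had a curved course. Up to 54 h 1 member rose (CELF2, slope 0.00558) and 13 had a curved course, for which fewer arrays were used, and with 1 array left out 17 to 23 did. The median change of the members was -0.974 with the array median, -1.25 with the spike-in RNA and -0.432 with normexp and quantile normalization (all genes -0.04), and -0.663 to -0.555 with 1 array left out. With normexp and quantile normalization 35 members fell and 0 rose.

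Slopes of called genes turned positive for CELF1 (0.000802) and PTBP3 (0.000515) with normexp and quantile normalization, for PTBP3 with the slide as a block (5.17e-05), and for PTBP3 (0.000586) and SRSF6 (0.00129) with the mean of all detected probes, a mean that joins probes of opposite direction. None of these 5 was called. For the other changes the cause was not tested. Dim probes (MBNL2, MBNL3) limit what can be seen of those genes.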

Other observations

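The other marker lists were measured beside the splicing genes. Of 3 neural genes tested, PAX6 (well above background on 10 arrays) and TUBB3 fell, TUBB3 to 61.6% of its early signal, and DCX was not called, while SOX1 and NEUROD1 were well above background on no array. Of 5 mesoderm genes MESP1 and TBX6 rose, to 348% and 251% (TBX6 not under the spike-in scaling), against 24.6% of all genes. TBXT, MIXL1 and EOMES were not called. Both rises were of dim genes, from 103.6 to 360.3 for MESP1 (detected on 18 arrays) and from 47.4 to 119 for TBX6 (on 17). The 5 signals summed to 509.6 to 566.8 on the 3 early arrays and to 543.7 to 1536 on the 3 late ones, ranges that overlap. None of the 4 endoderm genes was called. Of 4 fibroblast genes tested COL1A2 rose to 129% (also under normexp with quantile normalization, not under the array median or the spike-in scaling), and of 4 blood and endothelial genes KDR rose to 252% and also under each of the other 3 scalings, CDH5 rose to 152% under the scaling to the 75th percentile and under none of these 3, and RUNX1 fell to 21.6%. Of 6 mesenchymal genes tested 1 rose and 1 fell. With the slide as a block only CLDN6, DNMT3B and RUNX1 of all the marker genes were called, and each fell.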
